A study of Allium sativum with 18 samples.

Results

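The storage clove of garlic (*Allium sativum*) was compared between dormancy and germination by RNA sequencing. The comparison set 3 libraries of germinating storage clove against 3 libraries of dormant storage clove, 6 of the 18 libraries of the series, across all 57561 gene IDs. The plants carry the label Chalingzipisuan. Tissue was taken from dormant bulbs and from germinating bulbs whose shoots measured under 5 cm. Storage clove and basal clove had been parted by hand, and the labels do not say where the border lay or how many bulbs went into a sample. The series design calls the 3 samples of a group biological replicates. The other 12 libraries came from basal clove at the same 2 stages and from both tissues of enlarging bulbs, 3 for each group, and they set the gene filter and the spread of each gene together with the storage libraries. Fitted on the 6 storage libraries alone, the comparison called 16264 genes in place of the 18234 given below.

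A garlic clove is built largely of swollen storage leaf tissue, which holds the carbohydrate and nitrogen reserves of the plant and encloses the shoot bud. During dormancy the bud grows little. When the bud sprouts, the reserves of the storage leaf are broken down and exported to the growing shoot and roots, so the tissue passes from a resting store to a source. The files give no name or description for any gene ID, so the tissue could not be checked against marker genes, and the genes below are described by level, size of change and behaviour in the other groups.

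Of the 57561 gene IDs, 36578 had a value above 0 in at least 1 of the 6 storage libraries. Expression was given as FPKM, fragments scaled to the length of the gene and to the fragments assigned to genes in the library. Tests covered the 30530 genes that reached 1 FPKM in 3 or more of the 18 libraries. Among these, 28544 reached 1 FPKM in at least 1 of the 6 libraries and 1986 did not. A further 6236 IDs had some reads in the 6 libraries and were not tested, the highest of their values being 16.8 FPKM.

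The dormant libraries held fewer reads than the germinating ones. Reads assigned to genes came to 6540146, 7076493 and 7155009 in dormant storage clove and to 11627119, 12988262 and 10383944 in germinating storage clove. For a gene with 1 kb of coding sequence, 3 reads corresponded to 0.419 to 0.459 FPKM at dormancy and to 0.231 to 0.289 FPKM at germination, limits that cover counting error only. Replicates resembled each other closely. Rank correlations (Spearman) on the log2(FPKM + 1) scale were 0.973 to 0.975 within the dormant group, 0.970 to 0.977 within the germinating group, and 0.797 to 0.836 for the 9 pairs of a dormant with a germinating library. Outside the comparison, a pair of libraries leaned towards the opposite tissue. They were basal germinating replicate 3, with a mean correlation of 0.829 with germinating storage clove against 0.798 and 0.778 for its replicates, and storage enlarging replicate 2, with 0.895 with enlarging basal clove against 0.868 and 0.857. Inside it, storage germinating replicate 1 had a mean correlation of 0.823 with germinating basal clove, against 0.779 and 0.804 for replicates 2 and 3.

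Germination was accompanied by changes in most of the genes tested. At a limma adjusted p (Benjamini-Hochberg) below 0.05, 18234 of 30530 genes were called, which is 59.7%. Levels rose for 9392 genes (30.8%) and fell for 8842 genes (29.0%). Large changes were mostly rises. On the log2(FPKM + 1) scale, 5279 genes rose by at least 1 (17.3%) and 2997 fell by at least 1 (9.82%), while 978 rose by at least 3 (3.20%) and 158 fell by at least 3 (0.518%). Among still larger changes there were 200 rises against 29 falls of 5 or more, and 16 rises against 2 falls of 8 or more.

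The imbalance among large changes held under each of the 24 alternatives, but the counts and the direction of small changes depended on the scale. Rises of 3 or more numbered 374 with a pseudocount of 5 and 2260 with a pseudocount of 0.1, and falls of that size 74 and 372. With the deposited values 51.5% of the calls were rises, and the median change over all genes was 0.01. After quantile normalization 7774 genes rose and 11247 fell, a share of 40.9% with a median change of -0.17. In bulk samples, fewer cells of a type and less RNA of a gene in each cell cannot be told apart, and this holds for every change given here.

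**Figure D1:**
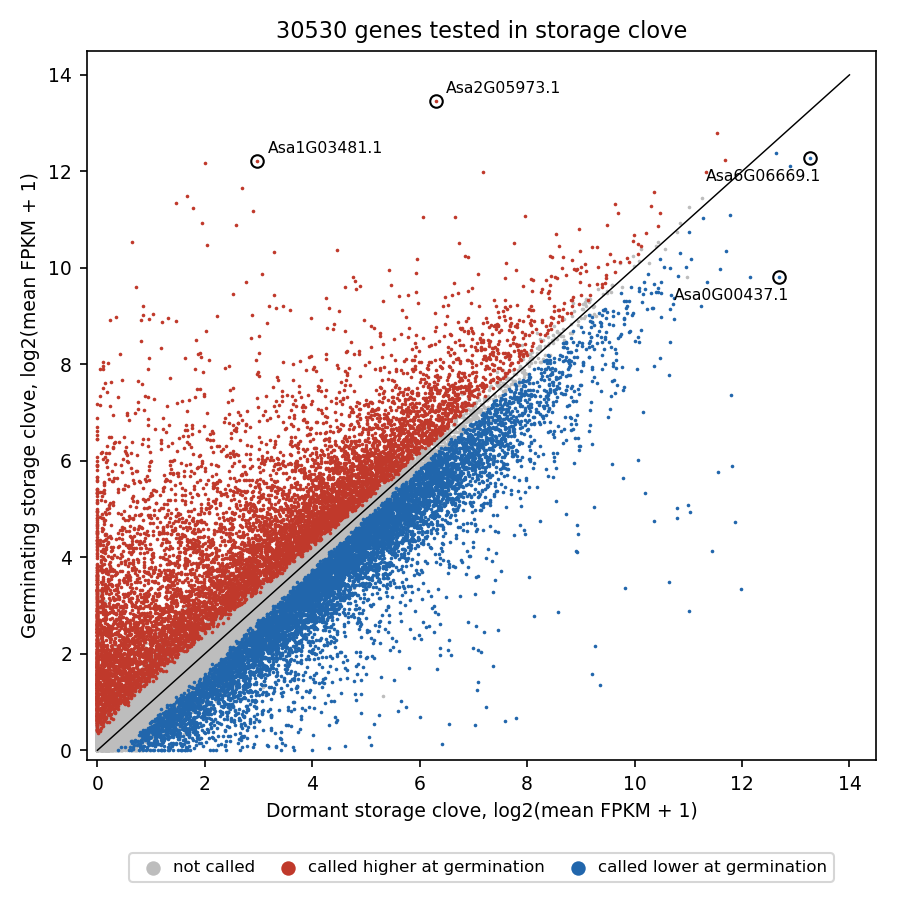
Each point is 1 of 30530 genes, placed by its mean level in dormant (horizontal) and germinating (vertical) storage clove as log2(mean FPKM + 1), n = 3 libraries each, with the line of equal level; red and blue mark genes called higher and lower at germination and grey the rest. The 978 rises of 3 or more fill the space above the line, mostly at low dormant levels, and the 158 falls of that size are sparser and start from higher dormant levels.

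The 2 genes with the largest gain in FPKM and the 2 with the largest loss, among called genes whose groups did not overlap, were named by rule. Asa2G05973.1 gained most. It stood at 67.2, 121 and 45.5 FPKM in the 3 dormant libraries and at 12749, 13961 and 7056 FPKM in the 3 germinating libraries. The groups were far apart, with the lowest germinating library well above the highest dormant one. The means were 77.8 ± 38.7 and 11255 ± 3687 FPKM (SD, n = 3), a 145-fold rise, or 7.21 on the log2 scale (SE 0.35, limma adjusted p = 7.2e-11). Asa2G05973.1 was the most abundant transcript in each of the 3 germinating libraries and there made up 1.02% of the summed FPKM, against 0.00738% at dormancy. Enlarging storage clove held it at 80.3, 105 and 190.5 FPKM, a range that overlapped that of dormancy. In basal clove it also rose, from 13.8, 12.2 and 9.77 FPKM to 5104, 3897 and 6823 FPKM, a log2 rise of 8.65 against 7.21 in storage clove (difference -1.43, SE 0.50, limma adjusted p = 0.028), while the germinating level was 2.13-fold higher in storage clove. The difference between the tissues stayed negative in all 24 alternatives, -1.76 to -1.06, but was not called in 7 of them. Among these were the fits without storage dormant replicate 2 (-1.06), storage germinating replicate 3 (-1.13), basal dormant replicate 3 (-1.31) and basal germinating replicate 3 (-1.23).

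Asa1G03481.1 came from a much lower dormant level. Its dormant values were 3.75, 5.30 and 11.5 FPKM, resting on 100 reads in all, and its germinating values were 4331, 6777 and 3112 FPKM. This is a 692-fold rise in mean FPKM, from 6.85 ± 4.10 to 4740.2 ± 1867 FPKM (SD, n = 3). On the log2 scale it came to 9.29 (SE 0.51, limma adjusted p = 2.5e-10). By abundance the gene ranked 12475 to 18544 in the dormant libraries and 2 to 11 in the germinating ones. Basal clove showed a log2 rise of 9.27, from 1.77, 0.621 and 0.355 FPKM to 1078, 469.7 and 2808 FPKM, and the test found no difference between the tissues (0.02, SE 0.72, limma adjusted p = 0.99), although that SE leaves room for a difference of more than 1 in either direction. Its sign turned with the setting, from -1.0 with voom on the recovered reads to 1.04 with a pseudocount of 5. The basal value of replicate 3 was the highest of its group, and that is the library nearer to storage clove.

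The 2 losses were of transcripts that remained abundant. Asa0G00437.1 ranked 3 in every dormant library, at 6317, 6448 and 6993 FPKM, and stood at 802, 923 and 961 FPKM at germination. All 3 germinating values lay close together and far below the dormant ones. The fall was 7.36-fold, from 6586 ± 359 to 895 ± 83.1 FPKM (SD, n = 3), or -2.88 on the log2 scale (SE 0.10, limma adjusted p = 1.3e-12). In basal clove the same gene went from 3203, 2934 and 3414 FPKM to 1687, 1637 and 1370.0 FPKM, a smaller fall of -1.03, and the difference between the tissues was -1.85 (SE 0.13, limma adjusted p = 4.8e-08).

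Asa6G06669.1 was the most abundant transcript of dormant storage clove, at 10222, 9572 and 9861 FPKM, and it was at 5314, 4448 and 5136 FPKM at germination. Its level thus fell 1.99-fold, by 1.0 on the log2 scale (SE 0.08, limma adjusted p = 3.4e-08), and it still ranked 3 to 7 in the germinating libraries. In basal clove it went from 8777, 8573 and 9015 FPKM to 3505, 3529 and 3239 FPKM, a log2 change of -1.36. The difference between the tissues, 0.36 (SE 0.12, limma adjusted p = 0.022), was near the median difference of all genes, 0.28, and rested on the scaling. After median-ratio scaling it was 0.13 (limma adjusted p = 0.37) with a median of 0.08. It was also not called without basal dormant replicate 3 (0.34) or storage germinating replicate 1 (0.31). Quantile normalization moved it the other way, to 0.62 (limma adjusted p = 0.0066) with a median of 0.12. The storage changes of all 4 genes were called in each of the 24 alternatives.

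**Figure D2:**
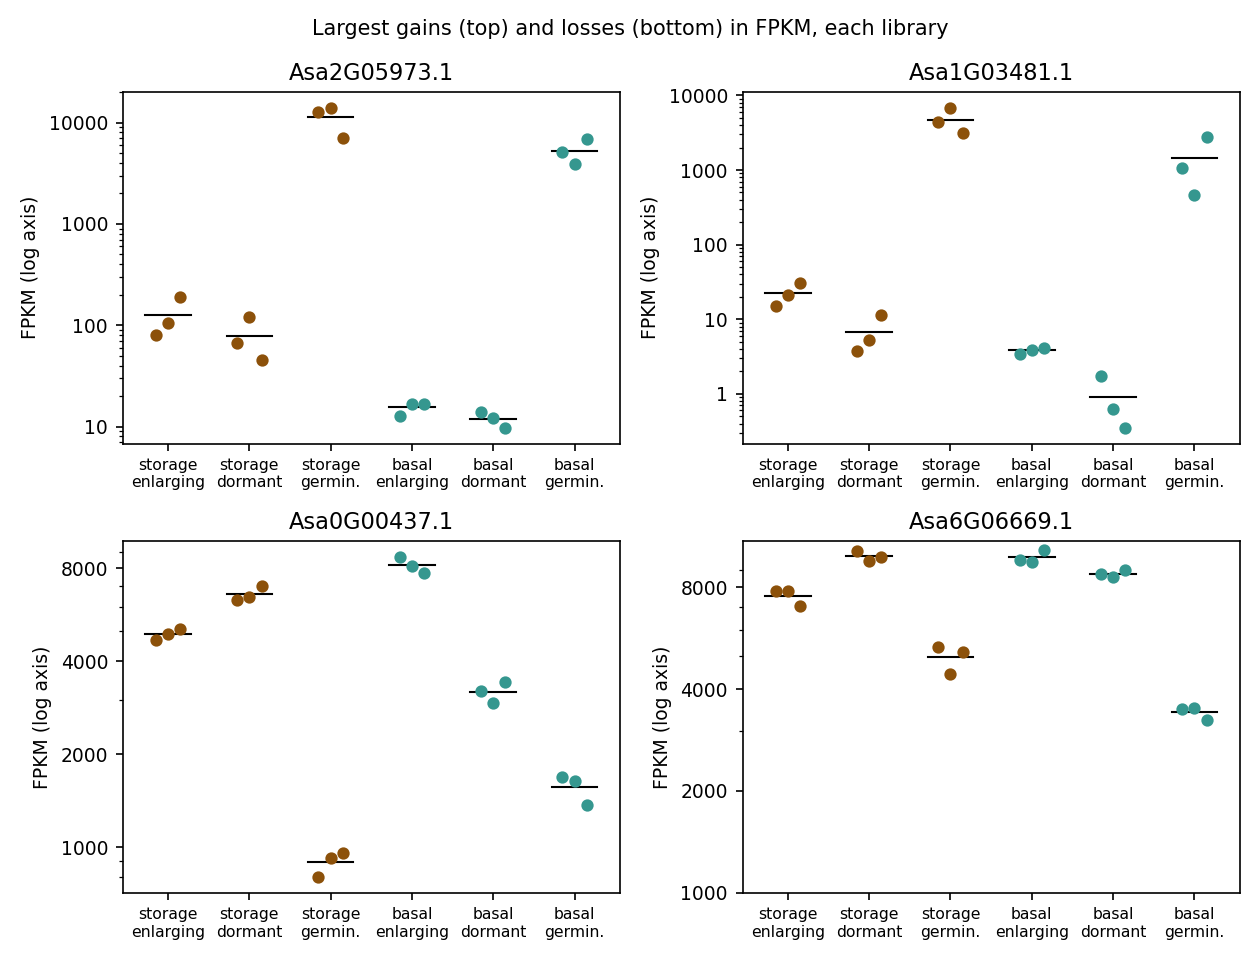
FPKM of the 4 named genes in each of the 18 libraries on log axes, by tissue (brown storage, green basal) and stage, with a bar at the mean of the 3 libraries of a group. Asa2G05973.1 and Asa1G03481.1 rise at germination in both tissues, and Asa0G00437.1 and Asa6G06669.1 fall in both.

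The 978 genes that rose by 3 or more were chosen by the storage values, so their levels there are a description. Their median level was 0.896 FPKM in dormant and 39.2 FPKM in germinating storage clove, and the middle 50% of them lay between 0.151 and 3.20 FPKM at dormancy and between 18.5 and 100.8 FPKM at germination. Together they made up 0.380%, 0.482% and 0.443% of the summed FPKM in the dormant libraries and 12.1%, 15.9% and 11.9% in the germinating libraries. Storage germinating replicate 2 gave the highest of the 3 values for 679 of the 978 genes (69.4%), while replicates 1 and 3 did so for 122 and 177. With each gene expressed as a percentage of its mean in germinating storage clove, the median gene stood at 84.9%, 118% and 95.8% in the 3 germinating libraries and at 1.55%, 2.50% and 2.16% in the 3 dormant ones.

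Basal clove, which shares no library with the storage comparison but shares the estimate of the spread, moved the same way for most of these genes. Of the 978, limma called 934 higher in germinating than in dormant basal clove (95.5%), 3 lower and 41 in neither direction, where 26.1% of all genes tested were called higher and 42.7% lower. After median-ratio scaling 948 of the 978 were higher, against 33.3% of all genes higher and 30.2% lower. The median log2 change in basal clove was 2.77 for the 978 genes and -0.27 for all genes. Without basal germinating replicate 3, 907 of the 978 were called higher, with a median of 2.40. The 3 basal germinating libraries differed in how far these genes were raised. The median gene reached 40.2%, 26.0% and 79.8% of its storage germinating mean in basal replicates 1, 2 and 3, and replicate 3 held the highest of the 3 basal values for 837 of the 978 genes (85.6%). In dormant basal clove the median gene was at 2.15% to 2.79%. The part that the nearness of replicate 3 to storage clove has in the basal values was not tested, beyond the values without it.

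The germinating levels of these genes were usually higher in storage than in basal clove, a side that the choice of members by storage values favours. The storage mean was at least the basal mean for 803 of the 978 genes (82.1%), against 58.8% of all genes tested. It was under 10% of the basal mean for 30 of the 978, against 2281 of all 30530 genes tested. It was under 5% for 14 of the 978, against 1449 of all. The part of basal tissue left on storage samples in those rises was not tested.

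Many rises started from hardly any reads. With at most 3 reads over the 3 dormant libraries, 213 genes reached a mean of 10 FPKM or more at germination, and 90 of them had 0 reads at dormancy. All 213 were called, a count that their choice by these values largely fixes. At germination 16 of them reached 100 FPKM, the highest 484 FPKM. They had not all been silent before dormancy, since 58 of the 213 stood at 1 FPKM or more in enlarging storage clove, and 26 did so in dormant basal clove. In the opposite direction, 8 genes with a dormant mean of at least 10 FPKM had at most 3 reads over the 3 germinating libraries, and all 8 had been at 1 FPKM or more in enlarging storage clove. The germinating libraries were deeper, so 3 reads marked a lower level there than at dormancy.

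**Figure D3:**
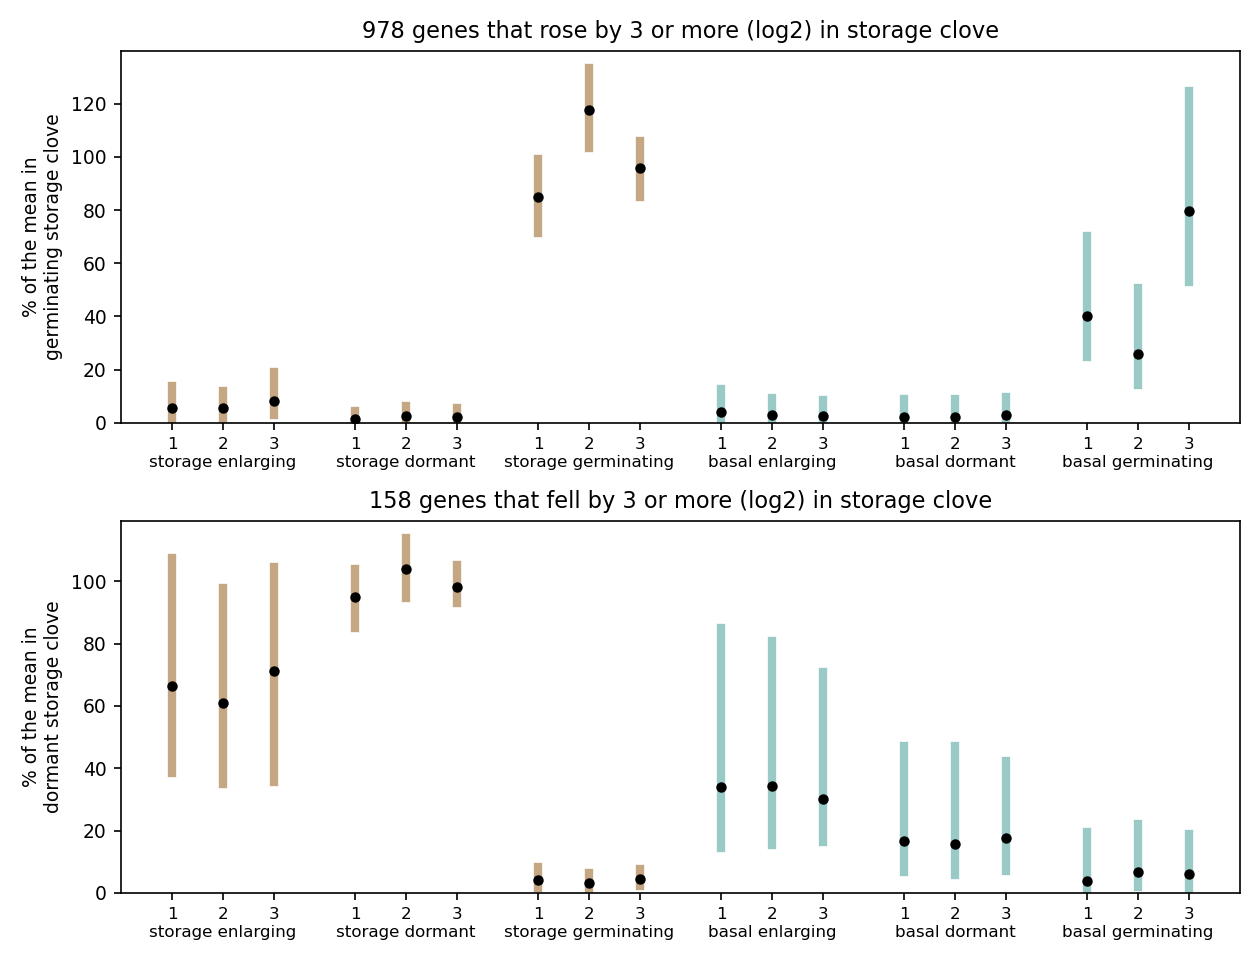
Level of each gene in each of the 18 libraries as a percentage of its mean in germinating storage clove for the 978 genes that rose by 3 or more (top) and of its mean in dormant storage clove for the 158 genes that fell by 3 or more (bottom), by tissue (brown storage, green basal). Points are medians over genes and bars span the middle 50% of genes; in the top panel basal germinating replicate 3, at 79.8%, lies above its replicates at 40.2% and 26.0%.

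The 158 genes that fell by 3 or more left a high dormant level. Their median was 76.3 FPKM in dormant and 3.21 FPKM in germinating storage clove, and their summed share of FPKM went from 4.73%, 5.66% and 5.08% to 0.150%, 0.116% and 0.159%. In enlarging storage clove they had been abundant too, with a median of 47.3 FPKM. The median gene stood there at 66.4%, 61.0% and 71.1% of its dormant mean. Over the 29211 tested genes with reads in dormant storage clove, the medians were 102.4%, 106.7% and 103.3%. The choice of the 158 genes by high dormant values favours a lower percentage. The 3 dormant libraries were more even for these genes than the germinating libraries were for the rises, with the highest value in replicates 1, 2 and 3 for 44, 73 and 41 genes.

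The median levels of these transcripts were lower in dormant basal clove, a side that the choice of members by high dormant storage values favours. The median gene was at 16.6%, 15.6% and 17.6% of its dormant storage mean in the dormant basal libraries and at 3.81%, 6.69% and 6.18% in the germinating ones. Over the 29211 tested genes with reads in dormant storage clove, the medians were 104.8%, 106% and 108.5% in dormant and 93.3%, 97.3% and 91.1% in germinating basal clove. Limma called 104 of the 158 lower at germination in basal clove (65.8%), 19 higher and 35 in neither direction, against 42.7% of all genes called lower and 26.1% higher. After median-ratio scaling 102 of the 158 were lower, against 30.2% of all genes. The median log2 change of the 158 genes in basal clove was -1.29, against -0.27 for all genes.

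Changes reached all levels of expression. Among the 86 genes with a mean of at least 1000 FPKM over the 6 libraries, 33 rose and 40 fell, and 12 rose and 9 fell by 3 or more. Among the 1986 genes between 100 and 1000 FPKM, 817 rose and 896 fell, with 126 rises and 29 falls of 3 or more. By number, most large changes lay between 10 and 100 FPKM, where 576 of 12071 genes rose and 94 fell by that much. Between 1 and 10 FPKM, 264 of 12063 genes rose and 26 fell by 3 or more. As a share of the genes at a level, large rises and large falls both became more frequent from 1 FPKM upwards. Over all genes tested the shares were 3.20% and 0.518%. Below 1 FPKM the scale compresses changes, and a mean that low over the 6 libraries leaves no room for a change of 3 in the 4324 genes there. The lowest means between 1 and 10 FPKM leave no such room either, so the increase in share with level is partly fixed.

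The most abundant transcripts were largely exchanged. Among the 100 most abundant genes of each library, 94 were common to the 3 dormant libraries and 82 to the 3 germinating libraries, and 34 genes belonged to both sets, 36.2% of the dormant and 41.5% of the germinating set. Of the 94 dormant genes 69 were called lower and 12 higher at germination, against 29.0% and 30.8% of all genes tested. Falls of 3 or more made up 16 of the 94, against 0.518% of all. Of the 82 germinating genes 20 had risen by 3 or more, against 3.20% of all. The choice of genes by a high level at 1 stage favours falls in the dormant set and rises in the germinating set. Genes called higher made up 21.8 ± 0.36% of the summed FPKM at dormancy and 54.7 ± 2.69% at germination (SD, n = 3), while genes called lower went from 59.8 ± 0.38% to 27.6 ± 1.83%. These shares are descriptions, because the same values made the calls.

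The concentration of the transcript pool was measured as the share of summed FPKM in the 100 most abundant genes of a library. It was 18.1%, 18.4% and 18.5% at dormancy and 17.4%, 18.3% and 16.1% at germination. The groups overlapped. The difference in means was -1.07 percentage points, -0.51 without storage germinating replicate 3 and -1.59 without storage germinating replicate 2 (two-sided exact permutation test, p = 0.2, with 0.1 the smallest p that 3 against 3 allows).

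More genes were detected at germination at equal depth. After every library was thinned at random to 6539512 reads, the 3 dormant libraries held 29422, 29987 and 29690 genes with at least 1 read, and the 3 germinating libraries held 31934, 31266 and 31303. The groups did not overlap, with 1801 more genes at germination on average, or 1298 more with at least 10 reads. The two-sided exact permutation p of either difference was 0.1, the smallest the design allows. Without thinning the difference was 2956 genes.

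The stage before dormancy was set beside the 2 stages compared. For the genes that rose by 3 or more, the median level in storage clove was 3.11 FPKM while bulbs were enlarging, 0.896 FPKM at dormancy and 39.2 FPKM at germination. For the 4301 genes that rose by 1 to 3, the medians were 5.33, 2.84 and 12 FPKM in that order. In both classes the median was lowest at dormancy and highest at germination, and the choice of members by the dormant and germinating values largely fixes this. The falling classes had the reverse order, likewise favoured by the choice, with medians of 19.0, 22.7 and 7.83 FPKM for the 2839 genes that fell by 1 to 3 and of 47.3, 76.3 and 3.21 FPKM for the falls of 3 or more. Comparisons of germinating clove with enlarging and with dormant clove share the germinating libraries, so the levels are given side by side only.

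In basal clove the median of the large rises was also lowest at dormancy, while the large falls had another order. The rises of 3 or more stood at a median of 1.51 FPKM in enlarging, 1.11 in dormant and 23.4 in germinating basal clove. The falls of 3 or more went from 25.9 to 15.9 to 4.88 FPKM, so that in basal clove their median was already lower at dormancy than during enlargement. The 12296 genes that were not called in storage clove had medians of 3.63, 3.31 and 3.21 FPKM across the storage stages.

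**Figure D4:**
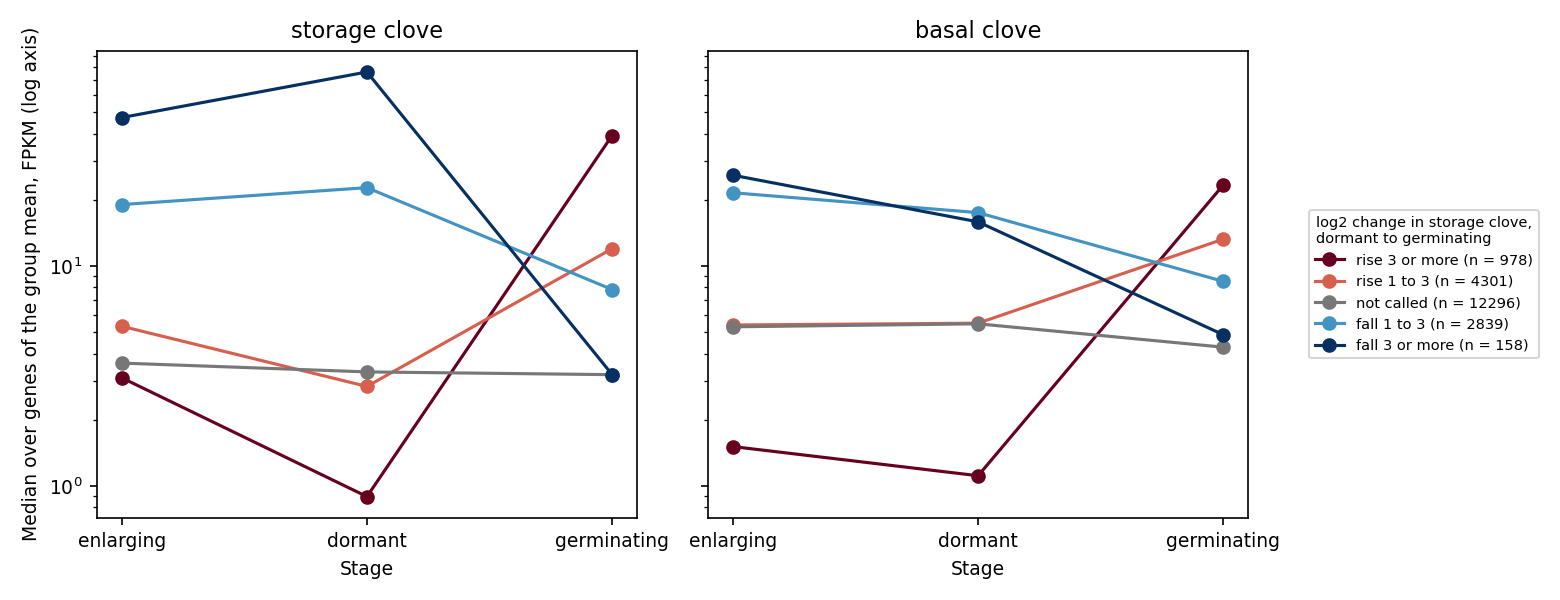
Median over genes of the group mean level (FPKM, log axis) at the 3 stages in storage clove (left) and basal clove (right), for classes of genes set by their log2 change in storage clove from dormancy to germination. In storage clove the 978 large rises pass from 3.11 to 0.896 to 39.2 FPKM and the 158 large falls from 47.3 to 76.3 to 3.21 FPKM.

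A test of the difference between the tissues asked which genes changed otherwise in storage than in basal clove. Limma called 13003 genes (42.6%), of which 8877 had the more positive change in storage clove (29.1%) and 4126 the more negative (13.5%). That split rests on the scaling. Of the called genes, 68.3% changed more positively in storage clove with the deposited values, where the median difference over all genes was 0.28, and 50% did so after median-ratio scaling, where 5633 genes were more positive and the median was 0.08. Without basal germinating replicate 3, 13074 genes were called. Among the 978 large rises, 470 had a more positive and 37 a more negative change in storage clove and 471 were not called, and among the 158 large falls 139 were more negative and 2 more positive. These class counts are descriptions, since the storage values chose the classes.

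By rule, the 2 genes with the most positive and the 2 with the most negative difference were named. Asa2G03094.1 moved in opposite directions. It stood at 0.281, 1.04 and 0.257 FPKM in dormant storage clove, on 12 reads, and at 33.0, 26.7 and 22.1 FPKM in germinating storage clove. In basal clove it went from 51.3, 80.4 and 52.5 FPKM to 17.8, 23.6 and 16.3 FPKM. The tissues were thus far apart at dormancy, and their ranges overlapped at germination. The log2 changes of 4.23 in storage and -1.61 in basal clove differed by 5.84 (SE 0.32, limma adjusted p = 2.7e-09). Asa7G03462.1 also rose in storage clove and fell in basal clove, at lower levels. Its storage values were 1.12, 0.173 and 0.853 FPKM at dormancy and 7.56, 10.8 and 14.1 FPKM at germination, and its basal values 25.1, 22.8 and 25.6 FPKM and then 5.15, 7.25 and 2.04 FPKM. Its storage values all lay below its basal values at dormancy and all above them at germination. The dormant storage values rested on 12 reads. The changes of 2.79 and -2.25 differed by 5.04 (SE 0.46, limma adjusted p = 4.7e-07).

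The most negative differences came from genes with a steep rise in basal clove. Asa5G00575.1 was at 0.0644, 0.0604 and 0.372 FPKM in dormant and at 2403, 2317 and 1495 FPKM in germinating basal clove, against 0.579, 6.60 and 7.06 FPKM and then 33.1, 43.1 and 37.8 FPKM in storage clove. It rose in both tissues, by 10.78 in basal and 3.08 in storage clove on the log2 scale, and the difference was -7.70 (SE 0.78, limma adjusted p = 1.4e-06). Its dormant basal values rested on 8 reads. Its germinating level was 54.5-fold lower in storage than in basal clove, and the part of basal tissue left on storage samples was not tested.

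Asa6G00265.1 fell in storage clove, from 16.5, 17.0 and 19.5 FPKM to 1.05, 1.51 and 2.36 FPKM, while it rose in basal clove from 4.75, 3.75 and 5.78 FPKM to 366, 117 and 98.9 FPKM. The germinating storage values rested on 23 reads. The groups were apart in both tissues, and basal germinating replicate 1 was well above its replicates. The storage change was -2.85, the basal change 4.84, and the difference -7.68 (SE 0.48, limma adjusted p = 1.2e-08). In enlarging storage clove the gene had been higher still, at 57.1, 51.6 and 67.7 FPKM. All 4 genes named for the difference were called for it in each of the 24 alternatives, but its size moved with the scale. It ranged from 3.97 to 7.41 for Asa2G03094.1, from 3.08 to 6.46 for Asa7G03462.1, from -10.19 to -6.40 for Asa5G00575.1 and from -8.53 to -5.88 for Asa6G00265.1.

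Large changes were found at neighbouring gene IDs. The IDs end in a running number after a prefix, and the sources used here do not say how the numbers were assigned. Where a gene that rose by 3 or more had a tested gene at the next number, that gene had also risen by 3 or more in 139 of 569 pairs (24.4%), against 3.20% of all genes tested. At a distance of 2 the share was 13.1%, at 10 it was 4.91% and at 100 it was 3.40%. For falls of 3 or more the shares were 18.6% (19 of 102 pairs) at the next number, 8.89% at a distance of 2 and 0 of 88 pairs at 100. Over all 18590 pairs of tested genes with consecutive numbers, the log2 changes correlated across genes at r = 0.25, and at r = 0.01 at a distance of 100. These are descriptions, since the genes of a pair share libraries and are not independent.

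**Figure D5:**
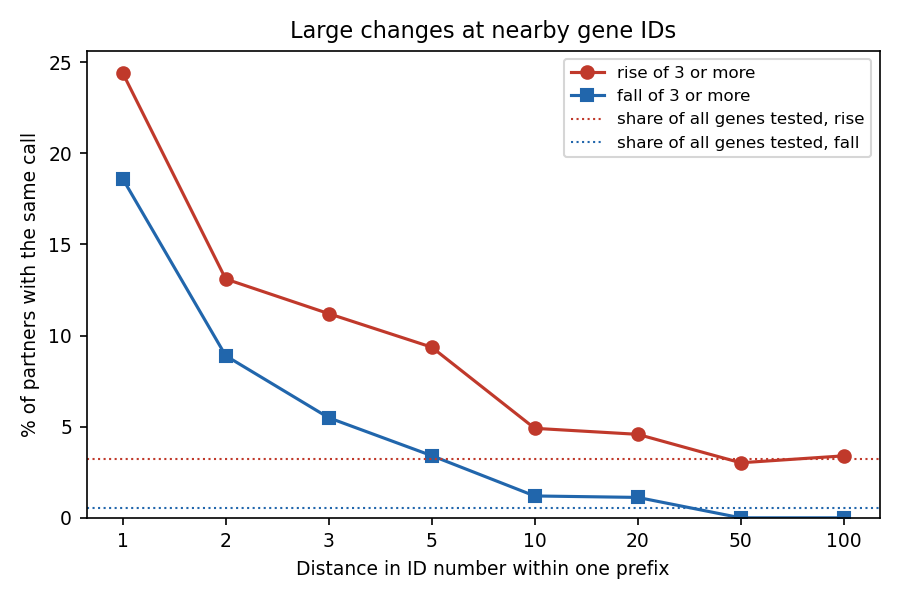
Percentage of pairs of tested genes in which the partner shows the same large change (log2 change of 3 or more) as the first gene, against the distance between their ID numbers within a prefix; dotted lines mark the share among all genes tested, 3.20% for rises and 0.518% for falls. The share of rises falls from 24.4% at the next number to 3.40% at a distance of 100.

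Runs of consecutive numbers held 252 of the 978 large rises (25.8%), in 113 runs of at least 2 genes, and 34 of the 158 large falls (21.5%), in 15 runs. The longest run of rises had 6 members and began at Asa2G05893.1, an ID chosen after its values were seen. Its members were at 0 to 2.48 FPKM in every dormant storage library, and between 39.4 and 3610.3 FPKM in the germinating storage libraries. The log2 rises ranged from 5.90 to 9.83. In germinating basal clove the members had medians of 44.2, 26.4 and 140.9 FPKM in replicates 1, 2 and 3.

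The longest run of falls had 4 members and began at Asa8G05233.1, likewise chosen after its values were seen. These were among the abundant transcripts of the dormant store, at 1665 to 3033 FPKM in the dormant libraries, and at 21.9 to 66.0 FPKM in the germinating libraries. The 4 changes were alike, from -6.02 to -5.80 on the log2 scale. Basal clove held the 4 at 265 to 560 FPKM at dormancy and at 14.3 to 42.2 FPKM at germination, so they fell in both tissues. In enlarging storage clove they had stood at 1607.5 to 3222 FPKM. Whether reads were divided among near-identical copies, which could make neighbouring members alike, is not stated in those sources, so the levels of single members of a run are uncertain.

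Among genes with a recovered length, those with large changes had shorter coding sequences in the median than all together, the falls more so than the rises. Coding length could be read from the values for genes with over 100 reads. That cut kept 940 of 978 large rises and 145 of 158 large falls, but 21227 of 30530 genes tested. At a given FPKM a short gene has fewer reads, so the cut may have dropped short genes unevenly, which was not tested. The median was 636 bp for 145 of the falls of 3 or more, 477 bp for the 29 falls of 5 or more, 858 bp for 940 of the rises of 3 or more, and 966 bp over all 21227 tested genes with a length. At 5 or more the rises had a median of 792 bp, and at 6 or more the rises had 693 bp and the falls 538.5 bp. Lengths under 500 bp made up 36.6% of the large falls, 23.6% of the large rises and 20.5% of all. Genes not called had a median of 942 bp with 22.2% under 500 bp, and rises of 1 to 3 had 888 bp with 22.2%, so the large rises differed little from these. Falls of any size had a median of 1044 bp. No test was made of these lengths.

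Replicates varied more for the genes with large changes. Among genes with a group mean above 3 on the log2 scale, the median SD between the 3 replicates was 0.12 in dormant and 0.14 in germinating storage clove. For the large rises it was 0.35 in germinating storage clove, and for the large falls 0.17 in dormant storage clove. Even so, the 3 germinating values lay above the 3 dormant values for each of the 978 large rises, and below them for each of the 158 large falls, a separation that calling at this size nearly fixes. These classes are 3.20% and 0.518% of the genes tested, and over all 30530 genes the groups lay apart for 18819.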

How the data were processed

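RNA was measured in 18 libraries, and the storage clove comparison used 6 of them directly. The authors deposited 1 table of FPKM values with 1 column per library, per the file headers, and 1 empty column. There were 0 other columns of values. HISAT2 is named, without a version, in the submitters' processing notes. The counter, genome build, annotation, strand setting and whether a unit is a read or a pair are details not given in the sources used. The unit is called a read.

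Depth was recovered from the deposited FPKM steps. Totals were chosen so that 400 genes had whole-number lengths, and 100% of the 595800 values above 0 were then whole reads within 0.01. The length was searched for, so part of that match comes from the search. Lengths were multiples of 3 for 95.2% of the 21276 genes with over 100 reads, so they are coding lengths.

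The test used log2(FPKM + 1) in limma 3.58.1 (R 4.3.3), with a mean for each of the 6 groups, fitted over 18 libraries (residual degrees of freedom 12) with a variance trend. P-values were adjusted by Benjamini-Hochberg over 30530 genes and called below 0.05. Fold changes on this scale understate those of low genes. Single values had a two-sided exact permutation test (scipy 1.17.1 in Python 3.11.15). The chi-square per gene between replicates was at least 2.68, so no pair of storage libraries agreed within sampling noise.

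Named genes were the 2 called genes with the largest gain and the 2 with the largest loss in mean FPKM among those with groups that did not overlap, and, for the difference between tissues, the 2 most positive and 2 most negative among genes called for both tests with a storage mean of at least 10 FPKM and storage groups that did not overlap. Lists of pathway genes and of markers could not be run, because the IDs carry no names. The groups, classes and lists were chosen with earlier results of these data known. There were 24 alternatives to the fit: pseudocount, filter, scaling, variance trend, replicate block, only the groups compared, voom on the recovered reads, each dormant or germinating replicate left out in turn, the 2 libraries nearer to the other tissue left out, and reads thinned to one depth, the last 2 of them chosen after seeing the data. For the genes named for gain or loss, the alternatives of the difference between the tissues were also chosen after seeing the data.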

Additional observations from a re-analysis of the deposited data

Results flagged for a closer look

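The change from dormancy to germination differed between storage and basal clove for 7 of the 8 genes named by ID, by the limma test of the difference itself with Benjamini-Hochberg adjustment. The same test called 42.6% of all genes tested. Asa0G00437.1 fell more in storage clove, by a difference of -1.85 on the log2 scale. Asa2G05973.1 had a difference of -1.43, which 7 of the 24 alternatives did not call. Asa6G06669.1 had a difference of 0.36, near the median of all genes (0.28), and 5 alternatives did not call it, among them median-ratio scaling at 0.13. With quantile normalization it was 0.62, against a median of 0.12. Asa2G03094.1 and Asa7G03462.1 rose in storage clove and fell in basal clove, with differences of 5.84 and 5.04. Asa5G00575.1 rose less in storage clove, by -7.70, and Asa6G00265.1 fell there while it rose in basal clove, by -7.68. The last 4 were named for the size of this difference among genes called for it, so both the call and the size in them are descriptions.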

How the results depend on the processing

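Calls at germination in storage clove numbered 15781 to 19021 over the 24 alternatives, against 18234, and calls for the difference between the tissues 10412 to 13546, against 13003, so both stayed within 1.5 times the reported count. The replicate numbers showed no pairing of dormant with germinating storage libraries, since same-numbered ones deviated together at r of -0.07, -0.05 and 0.02. Same-numbered basal and storage libraries gave 0.11, -0.25 and 0.06 at germination, where differently numbered ones ranged from -0.33 to 0.34. At dormancy the same-numbered ones gave -0.003, -0.014 and 0.035. A fit with the replicate block called 18125 and 12770 genes. The counts of large changes moved most with the scale. Rises of 3 or more numbered 978, and 2260 with a pseudocount of 0.1, 374 with a pseudocount of 5 and 1982 with voom on the recovered reads; falls of 3 or more numbered 158, and 372, 74 and 395. Rises and falls of at least 1 went from 5279 and 2997 to 3074 and 1622 with a pseudocount of 5, a construction that compresses low values. Genes that changed more positively in storage than in basal clove went from 8877 to 5633 after median-ratio scaling; the cause was not tested. The difference in the share of the 100 most abundant genes, -1.07, stayed negative in its 9 alternatives, -1.59 to -0.09 (-1.59 to -0.51 with 1 replicate left out), and that in genes detected, 1801, ranged from 1298 to 1945; with 3 against 3 neither could pass 0.05. The difference between the tissues of Asa1G03481.1, 0.02 and not called in any fit, turned negative with a pseudocount of 0.1 (-0.87), median-ratio scaling (-0.16), quantile normalization (-0.063), voom (-1.0) and thinned reads (-0.023), and ranged from -0.61 to 0.68 with 1 replicate left out. The shallower dormant libraries limit what can be said of genes under about 3 reads.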
